A study of Mus musculus with 12 samples.

Results

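The 10 transcription factor genes described here set mesenchymal or epithelial cell identity, and they were followed through the reprogramming of mouse fibroblasts to pluripotent cells. They are 10 of the 23420 genes counted in every library, taken by symbol. Snai1, Snai2, Twist1, Twist2, Zeb1, Zeb2 and Prrx1 form the mesenchymal group of 7 genes, and Grhl2, Ovol1 and Ovol2 form the epithelial group of 3. The study sequenced total RNA from 12 libraries of a mixed C57BL/6 x 129 background, 3 each of mouse embryonic fibroblasts (MEF), Stage1, Stage2 and established induced pluripotent stem cells (iPSC). Stage1 is day 6 of reprogramming, and Stage2 adds 4 further days. The MEF were not sorted, while cells of the other groups were sorted as positive for the Oct4-GFP reporter, so sort and group cannot be told apart in any comparison with MEF. The reprogramming factors and their delivery are not given in the sources used here. Nothing in the labels says whether replicates were separate cultures, so a p-value measures only the spread between these libraries, which may be technical.

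Group names follow the sample titles. The stage field of the labels differs from the title in 12 of 12 libraries. The sort field also looks shifted but was not counted, so the sort given above for each group is uncertain. The defining markers were therefore checked first. Summed over 8 fibroblast markers (Col1a1, Col1a2, Col3a1, Thy1, Pdgfrb, Dcn, Lum and Acta2), the libraries titled MEF had 24709 to 29886 CPM (read counts of a gene scaled by library size and TMM factor), against 14.6 to 26.6 at Stage1, 118 to 180 at Stage2 and 67.5 to 74.3 in iPSC. The sum over 8 pluripotency markers ran the other way, from 4.58 to 6.14 CPM in MEF to 2657 to 2799 at Stage1, 5273 to 5680 at Stage2 and 5901 to 7001 in iPSC. Gene counts totalled 8916223 to 19011944 per library. A gene with no count could still be present at up to 3 counts, which is 0.181 to 0.375 CPM depending on the library.

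In an epithelial-mesenchymal transition, cells lose apical polarity and cell-cell junctions and gain motility; the reverse step is a mesenchymal-epithelial transition, and fibroblasts pass through it early in reprogramming. Snail (Snai1, Snai2) and Zeb (Zeb1, Zeb2) proteins are zinc finger repressors that bind E-boxes in the promoters of junction genes, whereas Twist proteins are basic helix-loop-helix factors and Prrx1 is a homeodomain factor of limb and craniofacial mesenchyme. Grhl2 activates junction genes and opposes Zeb1, Ovol1 and Ovol2 are zinc finger repressors of mesenchymal genes, and microRNAs of the miR-200 family bind Zeb1 and Zeb2 messages.

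The E-box bound by Snail and Zeb factors was searched as CAGGTG, or CACCTG on the other strand, in the 300 bases around RefSeq transcription starts (GRCm38.p6, the build the authors call mm10). It was present in 20.2% of the 32851 promoters of this length and in at least 1 promoter of 22.6% of 27025 genes. Among 21 epithelial target genes of these repressors with a promoter entry, 19 held it (90.5%), the exceptions being Spint1 and Cgn, while 1 of 14 mesenchymal target genes did (7.14%). At least 2 matches were found in 12 of the 28 epithelial target promoters (42.9%), against 2.88% of all promoters. These 28 windows belong to the 21 genes, so genes with several windows count more than 1 time and the windows are not independent. For example, the 2 windows of Crb3 overlap and hold the same 4 matches. The epithelial list was drawn from genes described as targets of these factors, so its share is not independent of that choice, and a match is a string of letters and not a measured binding site. The promoters below are those of 3 list genes named later for their levels, with the E-box in capitals: Ap1m2 (chr9:21312284-21312583, minus strand) with 4 matches, Cldn6 (chr17:23679115-23679414, plus strand) with 2, and Cgn (chr3:94786433-94786732, minus strand) with none.
Ap1m2: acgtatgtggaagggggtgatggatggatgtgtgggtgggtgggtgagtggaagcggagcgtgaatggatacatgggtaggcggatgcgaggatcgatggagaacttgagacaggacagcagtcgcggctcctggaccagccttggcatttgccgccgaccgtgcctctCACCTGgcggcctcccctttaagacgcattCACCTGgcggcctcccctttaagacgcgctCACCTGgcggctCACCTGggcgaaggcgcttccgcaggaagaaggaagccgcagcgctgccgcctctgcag
Cldn6: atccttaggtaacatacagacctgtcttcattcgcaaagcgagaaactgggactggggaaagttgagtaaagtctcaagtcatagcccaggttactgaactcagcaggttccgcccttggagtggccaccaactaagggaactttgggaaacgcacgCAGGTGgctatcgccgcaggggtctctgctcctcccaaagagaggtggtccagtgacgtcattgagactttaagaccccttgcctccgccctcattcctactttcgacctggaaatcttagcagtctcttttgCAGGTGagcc
Cgn: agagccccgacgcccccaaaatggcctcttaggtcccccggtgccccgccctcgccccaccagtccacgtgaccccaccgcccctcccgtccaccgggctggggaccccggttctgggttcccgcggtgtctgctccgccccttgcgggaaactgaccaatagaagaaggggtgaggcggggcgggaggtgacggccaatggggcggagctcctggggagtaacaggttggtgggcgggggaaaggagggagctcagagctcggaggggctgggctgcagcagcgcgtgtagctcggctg

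Promoter entries matched 6 of the 10 factors. Those of 4 are shown because they differ in what follows: Snai1 (chr2:167537945-167538244, plus strand), which carries the E-box of its own family, the paralogs Twist1 (chr12:33957421-33957720, plus strand) and Twist2 (chr1:91801211-91801510, plus strand), and the epithelial repressor gene Ovol2 (chr2:144331313-144331612, minus strand).
Snai1: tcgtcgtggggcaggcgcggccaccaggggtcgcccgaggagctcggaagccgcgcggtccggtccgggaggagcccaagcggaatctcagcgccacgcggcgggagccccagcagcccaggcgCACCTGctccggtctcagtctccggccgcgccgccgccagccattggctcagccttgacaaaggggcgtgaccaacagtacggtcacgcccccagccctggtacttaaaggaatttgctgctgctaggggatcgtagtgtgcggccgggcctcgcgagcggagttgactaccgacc
Twist1: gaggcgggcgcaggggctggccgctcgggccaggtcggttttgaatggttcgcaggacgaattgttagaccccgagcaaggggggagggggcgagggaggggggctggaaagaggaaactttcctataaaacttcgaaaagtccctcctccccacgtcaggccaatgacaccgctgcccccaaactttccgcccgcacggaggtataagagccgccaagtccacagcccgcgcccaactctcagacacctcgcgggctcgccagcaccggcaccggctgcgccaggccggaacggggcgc
Twist2: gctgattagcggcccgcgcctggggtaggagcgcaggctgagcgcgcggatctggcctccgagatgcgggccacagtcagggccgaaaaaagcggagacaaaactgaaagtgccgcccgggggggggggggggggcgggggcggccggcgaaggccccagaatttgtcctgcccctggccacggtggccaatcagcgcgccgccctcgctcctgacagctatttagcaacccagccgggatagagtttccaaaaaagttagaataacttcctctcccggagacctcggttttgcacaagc
Ovol2: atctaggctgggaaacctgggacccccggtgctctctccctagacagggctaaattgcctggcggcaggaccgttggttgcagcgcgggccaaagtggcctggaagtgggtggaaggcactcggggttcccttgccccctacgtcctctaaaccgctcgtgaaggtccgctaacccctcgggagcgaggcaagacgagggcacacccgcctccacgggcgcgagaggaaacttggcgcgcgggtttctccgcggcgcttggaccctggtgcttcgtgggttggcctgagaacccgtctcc
Among these 6 genes the E-box was found in Snai1 alone, with its first base at position -126 from the start site. That is 16.7% of the 6, near the 22.6% of all genes with a promoter, and no result about these factors. These 4 windows were rich in G and C, with 70.0% in Snai1, 66.0% in Twist1, 64.7% in Twist2 and 65.7% in Ovol2, against a median of 52.7% over all promoters. They held 34, 27, 25 and 25 CpG dinucleotides in that order, where the median promoter held 7. The window of Prrx1 had 47.7% and 6 CpG, and the 4 windows of Zeb2 had 49.3 to 60.7% and 8 to 19 CpG. A Grainyhead motif, AACCGGTT on either strand, was in 0.146% of all promoters and in none of the 6.

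**Figure D1:**
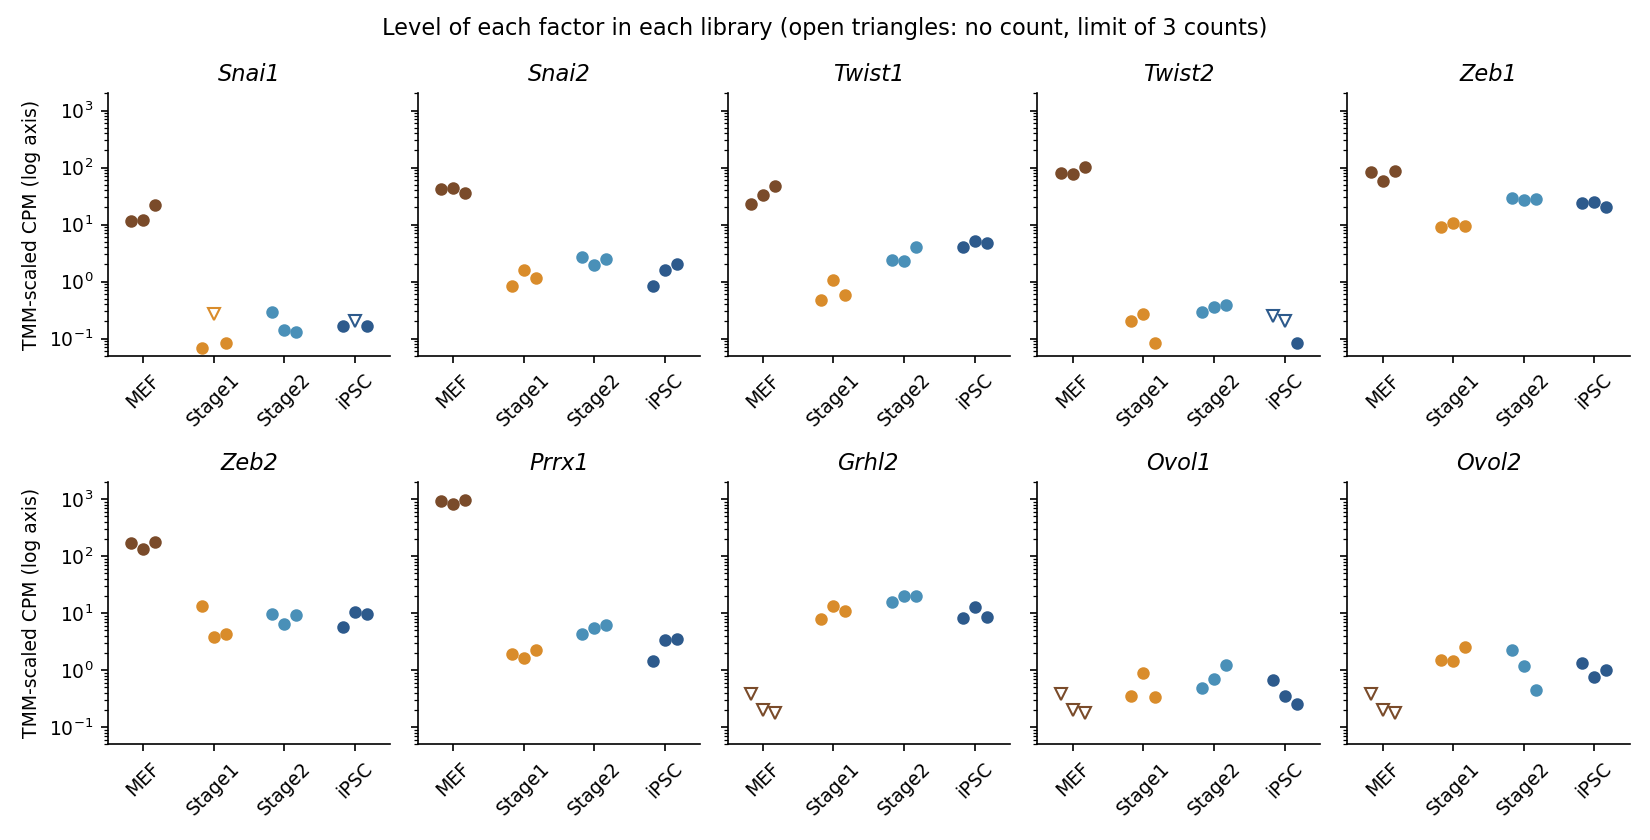
Level of each of the 10 factors in each of the 12 libraries, in CPM on a log axis, with 1 point per library and open triangles at the 3-count limit where no read was counted. The 7 mesenchymal factors are highest in the 3 MEF libraries, and Grhl2, Ovol1 and Ovol2 have no count there.

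Every mesenchymal factor was far lower at Stage1 than in MEF. All 7 were called lower (edgeR quasi-likelihood test, Benjamini-Hochberg adjusted p below 0.05), in a comparison that called 36.1% of the 14770 genes tested lower and 44.2% higher, 80.4% in all. Libraries of the groups did not overlap for any factor, which was also so for 79.2% of genes tested. Snai1 and Twist2 passed the filter on low counts through the MEF libraries alone, and Grhl2 and Ovol2 through the other groups alone, so these 4 had to differ from MEF. The median log2 fold change of the 7 was -5.62, against 0.27 for all genes tested. In bulk RNA, fewer cells of a type and less RNA per cell cannot be told apart.

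Prrx1 (chr1:163245119-163315145, minus strand) was the most abundant of the 10 in fibroblasts. It had 928, 816 and 971 CPM in the MEF libraries and 1.93, 1.61 and 2.27 CPM at Stage1, or 0.214% of the MEF mean. On the log2 scale this was -8.86 ± 0.263 (SE, n = 3 against 3; adjusted p = 1.31e-14). At Stage2 it had 4.39, 5.49 and 6.27 CPM, all above Stage1, and the rise of 1.48 ± 0.258 on the log2 scale was called (adjusted p = 0.000236). The iPSC libraries had 1.43, 3.33 and 3.48 CPM, all below Stage2, and the fall of 0.97 ± 0.244 was called (log2 fold change -0.97, adjusted p = 0.0118). That last call was lost without Stage2 replicate 3 (adjusted p = 0.0735) or without iPSC replicate 1 (-0.65, adjusted p = 0.0672), the lowest of its group.

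Twist1 and Twist2, closely related helix-loop-helix factors of fibroblast and osteoblast lineages, had different later levels. Twist1 (chr12:33957671-33959831, plus strand, a gene of 2.16 kb) had 23.1, 33.3 and 47.3 CPM in MEF and 0.483, 1.07 and 0.588 at Stage1. Its level then rose to 2.44, 2.32 and 4.13 CPM at Stage2 (log2 fold change 2.09 ± 0.401, adjusted p = 0.000557). In iPSC it stood at 4.11, 5.20 and 4.76 CPM, 2.73 ± 0.389 above Stage1 on the log2 scale (adjusted p = 3.02e-05), while the difference from Stage2 was not called (0.65 ± 0.318, adjusted p = 0.172). Twist1 in iPSC was thus at 13.6% ± 1.59 of the MEF mean (SD, n = 3), against 2.07% ± 0.909 at Stage1.

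Twist2 (chr1:91801461-91848034, plus strand) stayed at a few reads. MEF libraries had 651, 1154 and 1709 reads, the Stage1 libraries 3, 3 and 1, the Stage2 libraries 3, 5 and 6, and the iPSC libraries 0, 0 and 1. The 14 reads at Stage2 against 1 in iPSC gave a called difference (log2 fold change -3.32, adjusted p = 0.0107), and by counts a ratio of 13.4 with an exact 95% interval of 2.03 to 565 for counting error. The call was lost without iPSC replicate 1 (adjusted p = 0.0531) or replicate 2 (adjusted p = 0.0548), both libraries with no read. From MEF to iPSC the ratio of counts was 3384 (607 to 133704).

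The balance of the pair differed between MEF and the other groups. Twist1 gave 22.1 to 31.5% of the reads of both genes in MEF, 70.0 to 87.5% at Stage1 (33 reads in all), 86.8 to 91.4% at Stage2 and 98.2 to 100% in iPSC. The MEF libraries overlapped with no other library in this share. With 3 libraries against 3, an exact permutation test cannot go below a two-sided p of 0.10, so the shares are given without one.

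**Figure D2:**
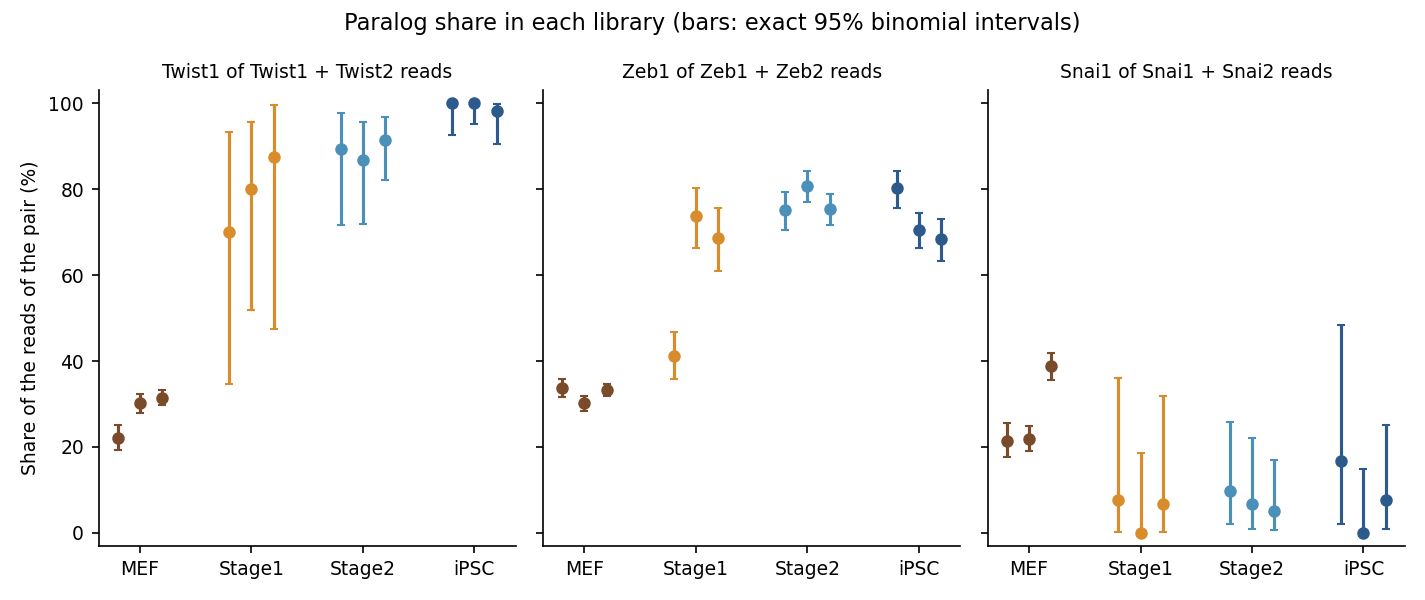
Share of the reads of each paralog pair that fell on the first gene, in percent, with 1 point per library and exact 95% binomial intervals for counting error. Twist1 goes from 22.1 to 31.5% in MEF to at least 98.2% in iPSC, Zeb1 from 30.1 to 33.7% to at least 68.3%, and Stage1 replicate 1 of the Zeb pair (41.1%) sits below the other libraries outside MEF.

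Zeb1 (chr18:5591327-5775468, plus strand), a repressor of E-cadherin and polarity genes, kept more of its fibroblast level than any other of the 7. It had 85.6, 58.4 and 87.9 CPM in MEF, then 9.25, 10.8 and 9.42 CPM at Stage1 (-2.97 ± 0.184 on the log2 scale, adjusted p = 7.39e-11). At Stage2 the libraries rose together to 29.8, 27.6 and 28.3 CPM (1.54 ± 0.179, adjusted p = 4.25e-06). The iPSC libraries had 23.6, 25.0 and 20.7 CPM, above every Stage1 library (1.23 ± 0.179, adjusted p = 3.72e-05). They were also below every Stage2 library, but that difference was not called (-0.30 ± 0.171, adjusted p = 0.231); with only the libraries of these 2 groups in the fit it was (-0.36, adjusted p = 0.0376). As a share of the MEF mean Zeb1 was at 12.7% ± 1.11 at Stage1, 36.9% ± 1.43 at Stage2 and 29.9% ± 2.80 in iPSC.

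Zeb2 (chr2:44983512-45117442, minus strand), its paralog, fell by Stage1, and its later changes were not called. MEF libraries had 168, 136 and 177 CPM. The Stage1 libraries were uneven, with 13.3 CPM in replicate 1 and 3.84 and 4.29 in the others. Stage2 had 9.86, 6.55 and 9.24 CPM and iPSC 5.79, 10.4 and 9.60, so that all later libraries lay within the range of Stage1. The fall from MEF to Stage1 was called (log2 fold change -4.46 ± 0.385, adjusted p = 4.22e-08), and Stage2 against Stage1 was not (0.23 ± 0.376, adjusted p = 0.665). One library decides this: without Stage1 replicate 1, Zeb2 was higher at Stage2 than at Stage1 by 1.05 (adjusted p = 0.00685) and higher in iPSC than at Stage1 by 1.09 (adjusted p = 0.00553). Zeb2 is also made by macrophages, and 9 macrophage and blood markers summed to 141 to 158 CPM in MEF, 27.7 to 36.9 at Stage1, 39.8 to 51.5 at Stage2 and 23.8 to 32.5 in iPSC. Laptm5 (15.3 CPM in MEF, 21.3 at Stage1) and Cd68 (8.15 and 7.54 CPM) made up most of the Stage1 sum, whereas Lyz2 went from 78.4 to 1.30 CPM, Tyrobp from 9.19 to 0.195 CPM and Csf1r from 8.27 to 0.353 CPM. None of the 9 was at 0 in any group, Stage1 replicate 1 had the highest Stage1 sum (36.9 CPM), and their part in the Zeb2 values was not tested.

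Between these paralogs Zeb1 gave the smaller share of reads in fibroblasts and the larger one later. The Zeb1 share of the reads of both was 30.1 to 33.7% in MEF, 41.1 to 73.8% at Stage1, 75.1 to 80.8% at Stage2 and 68.3 to 80.3% in iPSC. The low Stage1 value belonged to replicate 1, the library with high Zeb2.

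Snai1 (chr2:167538195-167542814, plus strand), the prototype Snail repressor, was nearly absent outside the fibroblasts. It had 94, 184 and 373 reads in MEF, 1, 0 and 1 at Stage1, 3, 2 and 2 at Stage2, and 2, 0 and 2 in iPSC. The ratio of MEF to Stage1 by counts was 309 (95% interval 85.2 to 2557), and the difference was called (adjusted p = 1.84e-09). No difference among the later groups was called, and at these counts a change of several-fold was not detectable: the 7 reads of Stage2 against the 2 of Stage1 allow a ratio of 0.627 to 32.5.

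Snai2 (chr16:14705852-14709395, plus strand), also called Slug and a marker of neural crest and mesenchyme, stayed measurable in every library. It had 43.0, 43.8 and 35.5 CPM in MEF and 0.829, 1.61 and 1.18 CPM at Stage1 (log2 fold change -5.09 ± 0.308, adjusted p = 5.68e-11). Stage2 libraries were all higher than Stage1, at 2.73, 1.97 and 2.45 CPM, a called rise of 0.99 ± 0.332 (adjusted p = 0.0237). This call was lost without Stage1 replicate 1 (0.75, adjusted p = 0.117), Stage1 replicate 3 (adjusted p = 0.0688), Stage2 replicate 1 (adjusted p = 0.0772) or Stage2 replicate 3 (adjusted p = 0.0678). The iPSC libraries spread from 0.839 to 2.04 CPM and overlapped with both earlier stages. Snai1 made up 21.5 to 38.8% of the reads of the Snail pair in MEF and 0 to 16.7% in the other 9 libraries.

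**Figure D3:**
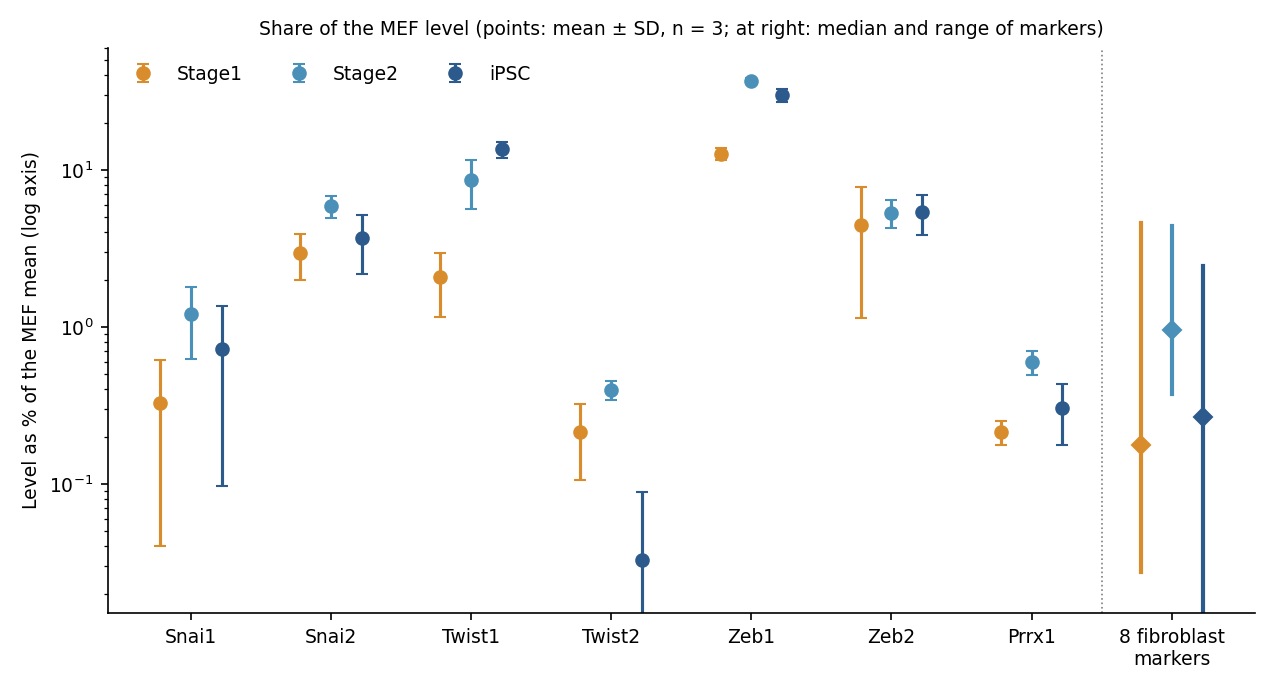
Level of the 7 mesenchymal factors at Stage1, Stage2 and in iPSC as a percentage of the MEF mean (log axis; mean ± SD of 3 libraries, without the spread of MEF), with the median and range of 8 fibroblast markers at right. Zeb1 (12.7, 36.9 and 29.9%) and, at Stage2 and in iPSC, Twist1 (8.58 and 13.6%) lie above the highest marker, while Twist2 and Prrx1 stay below 1%.

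The share of the MEF level that was retained differed between the factors. Of the MEF level, the 8 markers kept a median of 0.177% at Stage1, 0.955% at Stage2 and 0.265% in iPSC, and at most 4.56% (Dcn), 4.37% (Dcn) and 2.43% (Pdgfrb) in that order. Prrx1 (0.214, 0.595 and 0.303%) and Twist2 (0.214, 0.395 and 0.0325%) were within the range of the markers in all 3 groups, and so was Snai1 (0.329, 1.21 and 0.726%). Zeb1 was above the highest marker in all 3 groups, and Twist1 (8.58 and 13.6%), Snai2 (5.85 and 3.66%) and Zeb2 (5.34 and 5.37%) were above it at Stage2 and in iPSC. Lum was at 0 in all iPSC libraries. The part that fibroblast RNA plays in the remaining levels was not tested.

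The epithelial factors had no read in any of the 3 MEF libraries and appeared by Stage1. Both of those tested were called higher at Stage1 and in iPSC than in MEF; since neither could pass the filter through MEF, the direction was set by the filter. Grhl2 (chr15:37232821-37363569, plus strand), an activator of E-cadherin and claudin genes, had 113, 148 and 132 reads at Stage1, 163, 286 and 306 at Stage2, and 98, 184 and 101 in iPSC. Against a floor of 3 reads over the MEF group this is at least 138-fold higher at Stage1 and at least 133-fold higher in iPSC.

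Grhl2 had its highest level at Stage2. The libraries had 7.80, 13.2 and 11.1 CPM at Stage1, 15.9, 20.1 and 19.8 at Stage2, and 8.22, 12.8 and 8.58 in iPSC, so Stage2 overlapped with neither neighbour. It rose from Stage1 to Stage2 (log2 fold change 0.80 ± 0.258, adjusted p = 0.0212) and fell from Stage2 to iPSC (-0.91 ± 0.258, adjusted p = 0.0245). Stage1 and iPSC were not called different (-0.11 ± 0.261, adjusted p = 0.769). Each of the called changes was lost on leaving out any of 4 single libraries. For the rise these were Stage1 replicate 1 (0.60, adjusted p = 0.103), Stage1 replicate 3 (adjusted p = 0.0602), Stage2 replicate 2 (adjusted p = 0.0828) and Stage2 replicate 3 (adjusted p = 0.0769). For the fall they were Stage2 replicate 2 (adjusted p = 0.0930), Stage2 replicate 3 (adjusted p = 0.0932), iPSC replicate 1 (adjusted p = 0.126) and iPSC replicate 3 (adjusted p = 0.0963).

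Ovol2 (chr2:144305175-144332080, minus strand), a repressor of Zeb1 in epithelia, was counted 22, 16 and 30 times at Stage1, 23, 17 and 7 times at Stage2, and 16, 11 and 12 times in iPSC. The Stage1 level was at least 23.9-fold that of MEF. Later groups were not called different from Stage1, though every iPSC library (0.763 to 1.34 CPM) was below every Stage1 library (1.43 to 2.52 CPM). Ovol1 (chr19:5549137-5560575, minus strand) had 5, 10 and 4 reads at Stage1, 5, 10 and 19 at Stage2 and 8, 5 and 3 in iPSC, and was the 1 factor that did not pass the filter. Without a filter it was called higher than in MEF at Stage1 (adjusted p = 0.000769) and in iPSC (adjusted p = 0.00139), at least 6.67-fold and 5.54-fold by counts, and not called between the later groups.

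**Figure D4:**
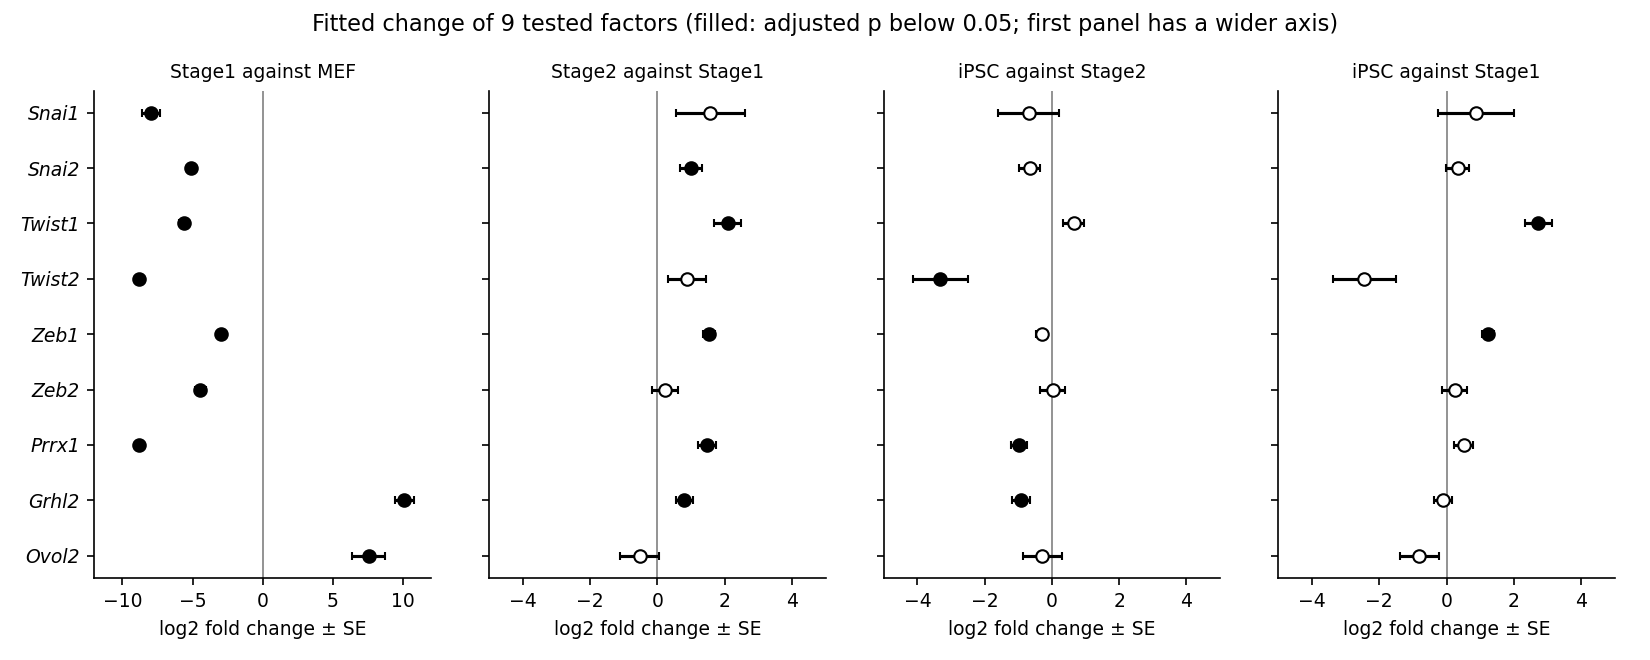
Fitted log2 fold change ± SE of the 9 tested factors in 4 comparisons, with filled points where the adjusted p was below 0.05 and a wider axis in the first panel. After the large changes from MEF, 5 factors are called higher at Stage2 than at Stage1, 3 are called lower in iPSC than at Stage2 and 2 are called higher in iPSC than at Stage1; the values of Grhl2 and Ovol2 in the first panel rest on groups with no MEF read and are no estimate of size.

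Between Stage1 and Stage2, 5 of the 9 tested factors were called higher (Snai2, Twist1, Zeb1, Prrx1 and Grhl2) and 0 lower, where 20.6% of all genes tested were called higher and 19.8% lower, 40.4% in all. The libraries of the 2 groups did not overlap for 7 of the 9, against 59.6% of genes tested. From Stage2 to iPSC, 3 were called lower (Twist2, Prrx1 and Grhl2) and 0 higher, where 8.87% of all genes tested were called lower and 9.21% higher. Libraries of these groups did not overlap for 4 of the 9, against 46.2% of genes tested. Against Stage1, iPSC had 2 factors called higher (Twist1 and Zeb1) and 0 lower, beside 21.3% higher and 18.1% lower of all genes tested. There the groups did not overlap for 3 of the 9, against 58.7% of genes tested. In the comparison of iPSC with MEF, 7 were lower and 2 higher, beside 35.8% and 44.9% of all genes tested, and none of the 9 overlapped, against 80.1% of genes tested without overlap. These comparisons share groups, so the counts are not independent of each other. In the step from Stage1 to Stage2 the 3 calls for Twist1, Zeb1 and Prrx1 held in all 19 alternative analyses, and in the step from Stage2 to iPSC none of the 3 did.

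Expressed per kilobase of annotated exon, which allows genes to be compared within a group, Prrx1 led in MEF with 91.9 ± 8.15 CPM per kb (SD, n = 3). Twist2 followed at 27.5 ± 4.36, then Twist1 at 21.2 ± 7.46 and Snai2 at 20.2 ± 2.28, whose ranges overlapped with one another except for Twist2 and Snai2. Zeb2 (14.0 ± 1.90), Zeb1 (13.3 ± 2.82) and Snai1 (9.57 ± 3.72) came last and overlapped among themselves. The highest Zeb2 (15.5) and Zeb1 (15.2) libraries also overlapped with the lowest Twist1 library (14.2). At Stage1 the order was headed by Grhl2 (2.01 ± 0.513) and Zeb1 (1.69 ± 0.148), with overlapping libraries, ahead of Ovol2 (0.944 ± 0.314). At Stage2 Zeb1 (4.92 ± 0.190) stood above Grhl2 (3.49 ± 0.439) in every library. In iPSC the order was Zeb1 (3.98 ± 0.373), Twist1 (2.88 ± 0.337) and Grhl2 (1.85 ± 0.473), each above the next without overlap, and Twist2 was last. The libraries thus moved from a set led by Prrx1 to one led, at Stage2 and in iPSC, by Zeb1. The annotation behind the counts is not given, so the exon lengths used here may differ from those counted.

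Several of these genes overlap transcripts annotated on the other strand (Twist2, Zeb1, Zeb2, Prrx1, Grhl2, Ovol1 and Ovol2). The sources used here do not say whether counting used strand, and reads of such partners cannot be separated from those of the factor. The same holds for reads that map to more than 1 place.

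By correlation of log2 CPM over the 12 libraries, which the 3 MEF libraries dominate, the genes most like each factor were as follows. Snai1 was nearest to the giant cadherin gene Fat4 (r = 0.9974), Snai2 to Prrx1 (0.9903), Twist1 to the Wnt receptor gene Fzd1 (0.9937) and Twist2 to the cell cycle inhibitor gene Cdkn2b (0.9932). Zeb1 was nearest to Zcchc24 and the phosphatase gene Dusp1 (0.9883 each), Zeb2 to Pde6d (0.9918) and Prrx1 to the adhesion gene Lpp (0.9980). Grhl2 was nearest to Tdrd12 and Prdm14 (0.9965 each), a germ cell gene and a pluripotency regulator, and Ovol2 to Dclre1a (0.9768). These values describe likeness of pattern over libraries that share their groups.

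The miR-200 family that binds the Zeb messages has 5 members in 2 seed classes. Their mature 3p strands are shown with the seed, bases 2 to 8, in capitals, since the seed class decides which sites in Zeb1 and Zeb2 they can pair with. Seed AACACUG is shared by miR-141 and miR-200a, and seed AAUACUG by the other 3.
mmu-miR-141-3p: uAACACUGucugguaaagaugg
mmu-miR-200a-3p: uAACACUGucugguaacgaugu
mmu-miR-200b-3p: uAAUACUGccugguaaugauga
mmu-miR-200c-3p: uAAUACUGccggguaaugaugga
mmu-miR-429-3p: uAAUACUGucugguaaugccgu
Their hairpin genes lie on chromosome 4 (Mir200a, Mir200b, Mir429) and chromosome 6 (Mir141, Mir200c). These libraries counted 0 reads on the 5 hairpins in MEF, 3 at Stage1, 12 at Stage2 and 14 in iPSC, and 12 of the last 14 were on Mir429. Such reads come from long RNA over the hairpin and do not measure the mature microRNA. None of the 5 passed the filter.

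**Figure D5:**
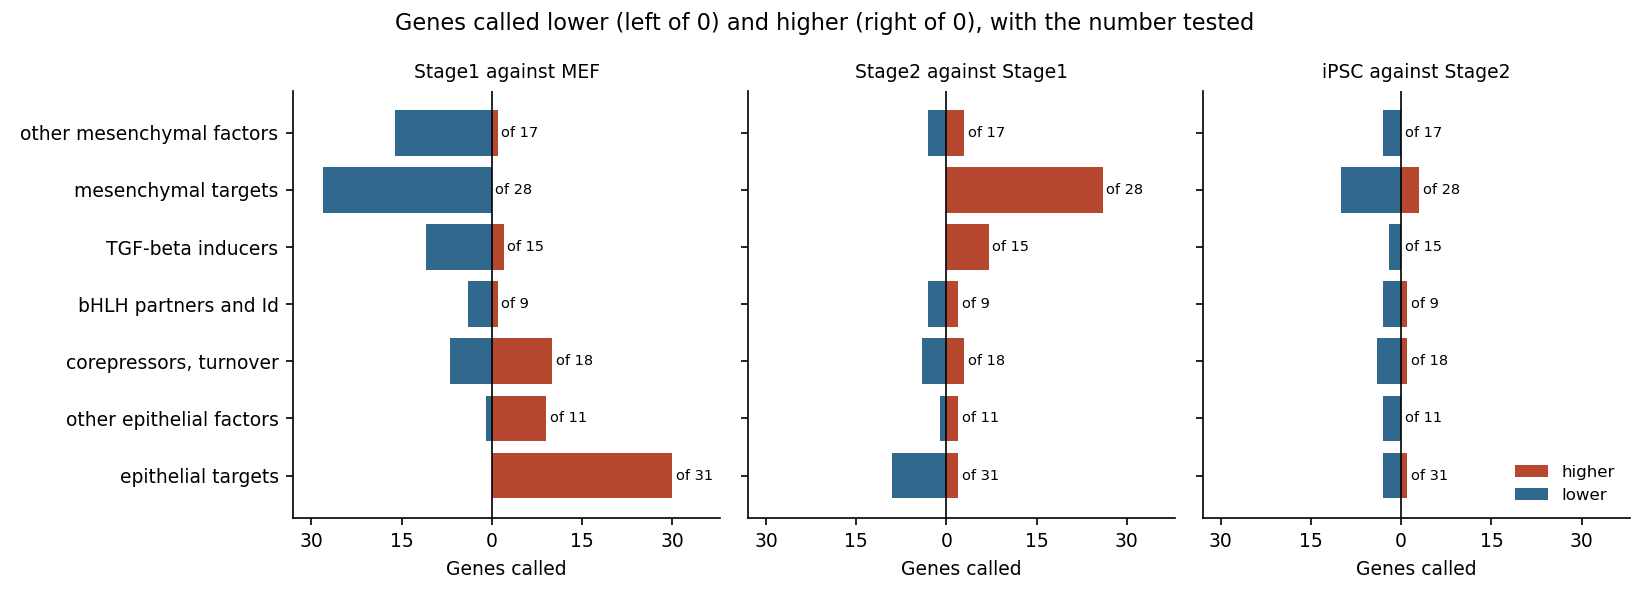
Number of genes called higher (right) and lower (left) in 7 lists of partners and targets of these factors, for 3 comparisons, with the number tested beside each bar. Mesenchymal targets go from 28 of 28 lower at Stage1 to 26 of 28 higher at Stage2, and epithelial targets from 30 of 31 higher to 2 higher and 9 lower.

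Genes that Snail and Zeb factors repress were described next. Of 31 epithelial target genes tested, 30 were called higher at Stage1 than in MEF and 0 lower, where 44.2% of all genes tested were higher; the median log2 fold change was 6.90 (6.03 with the 11 genes that had no MEF read set to their lower bound). The filter on low counts fixed part of this: 19 of the 31 reached its cutoff in no MEF library, so they had to be higher later, and neither count nor median supports the direction. St14, a membrane protease, Esrp1, an epithelial splicing regulator, and Ap1m2, a sorting adaptor of polarised cells, had no MEF read and reached 79.7 ± 13.6, 48.0 ± 4.16 and 31.8 ± 3.19 CPM at Stage1. From Stage1 to Stage2, 2 rose (Krt18 and Tjp3) and 9 fell, among them Krt8 (-1.85, adjusted p = 0.00171), Bspry (-1.77, adjusted p = 0.000106) and Ap1m2 (-1.46, adjusted p = 0.000159). Of all genes tested, 20.6% were higher and 19.8% lower in this step. Library totals gave 4 higher and 7 lower, and the lower call for Marveld3 (adjusted p = 0.0493) was lost in many alternatives. The median over the 31 was -0.24, against 0.02 for all genes tested. In iPSC against Stage2, 3 were lower, near the 8.87% of all genes tested, and 1 was higher, against 9.21%. Esrp1 had the largest fall among those with at least 5 CPM (-1.62, adjusted p = 0.000387). The higher gene was Perp (0.64, adjusted p = 0.0353), a call lost with library totals (adjusted p = 0.0578) and on leaving out any 1 Stage2 or iPSC library (adjusted p = 0.0585 to 0.123). Library totals gave 0 higher and 4 lower, and DESeq2 1 higher and 6 lower. Against Stage1, 2 of the 31 were called higher in iPSC (Cgn and Tjp3) and 12 lower, beside 21.3% and 18.1% of all genes tested. Library totals gave 3 higher and 9 lower for that comparison. The claudin gene Cldn6 was at 24.3 ± 7.26, 16.8 ± 1.97 and 22.5 ± 2.44 CPM in the 3 later groups and the junction gene Cgn, whose promoter window held no E-box, at 15.1 ± 2.99, 20.2 ± 2.81 and 26.7 ± 1.80 CPM, both with no read in MEF.

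Of the mesenchymal target genes, which rise in cells that make these factors, 28 of 28 fell from MEF to Stage1 (median -8.10, against 0.27 for all genes tested, of which 36.1% fell). Postn, a matrix protein, went from 4470 ± 1111 to 0.755 ± 0.348 CPM, and Acta2, smooth muscle actin, from 12381 ± 737 to 3.41 ± 1.49 CPM. At Stage2, 26 of the 28 were higher than at Stage1 and 0 lower, with a median of 2.03 (0.02 for all genes tested, of which 20.6% were higher). Like the other lists, this one was chosen with earlier results of these data known, so its counts are not independent of them. Lox, a collagen crosslinking enzyme, rose from 1.90 ± 0.465 to 34.4 ± 6.52 CPM (4.18, adjusted p = 3.12e-10) and Postn to 11.5 ± 4.62 CPM (3.89, adjusted p = 4.45e-07). In iPSC, 10 were lower than at Stage2 and 3 higher (8.87% and 9.21% of all genes tested), and 22 were higher than at Stage1 and 1 lower (21.3% and 18.1% of all genes tested). Of the 8 fibroblast markers, 6 of which are on this list too, 6 were called higher at Stage2 than at Stage1 and 7 lower in iPSC than at Stage2; their part in these counts was not tested.

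TGF-beta signalling induces Snail and Zeb genes. Of 15 genes of this pathway tested, 11 were lower and 2 higher at Stage1 than in MEF (36.1% and 44.2% of all genes tested), led by the ligands Tgfb3 (log2 fold change -9.14) and Tgfb1 (-7.38) and the receptor Tgfbr2 (-6.31). At Stage2, 7 were higher than at Stage1 and 0 lower, against 20.6% and 19.8% of all genes tested (10 and 0 when scaled by library totals). Smad6 (2.50, adjusted p = 5.34e-05), Skil (2.09, adjusted p = 5.26e-08) and Smad7 (1.80, adjusted p = 1.49e-06), named by the size of their change, are feedback inhibitors of the pathway. In iPSC against Stage2, 2 were lower and 0 higher, namely Smad7 (-0.68, adjusted p = 0.0177) and Tgfb3 (adjusted p = 0.0408); each call was lost without certain single libraries, with adjusted p up to 0.0928 for Smad7 and 0.386 for Tgfb3.

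Other factors of the same class were mixed after Stage1. Of 17 further mesenchymal transcription factors tested, 16 were lower and 1 higher at Stage1 than in MEF (36.1% and 44.2% of all genes tested). The largest falls were in Foxc2 (32.7 to 0.0230 CPM), Prrx2, the paralog of Prrx1 (38.6 to 0.186 CPM), and Osr1 (18.2 to 0.109 CPM); 5 of the 17, Foxc2 and Osr1 among them, passed the filter through MEF libraries alone and so had to fall. At Stage2, 3 were higher than at Stage1, among them Nfatc4 (log2 fold change 2.48), and 3 lower, namely Tbx15 (-3.07), Hmga2 (-1.65) and Tead1 (-0.48, not called with library totals, adjusted p = 0.127). These counts are near the 20.6% higher and 19.8% lower of all genes tested and no result about the list. Hmga2, a chromatin protein that induces Snai1, fell again to iPSC (29.4 to 3.89 CPM; -2.90, adjusted p = 4.67e-07). Of 11 further epithelial factors tested, 9 were higher and 1 lower at Stage1 than in MEF (44.2% and 36.1% of all genes tested), and 5 of the 11 reached the cutoff in no MEF library and so had to be higher later. The lower call, for Gata3, was not made with library totals (9 higher, 0 lower) or DESeq2 (13 and 0). Among those 5, Tfap2c and Grhl3, the latter a paralog of Grhl2, had no MEF read and reached 119 and 39.3 CPM. At Stage2, Klf5 (16.3 to 112 CPM) and Elf3 (24.2 to 70.2 CPM) rose and Tfap2c fell (119 to 54.5 CPM), where 20.6% of all genes tested rose and 19.8% fell. In iPSC 3 were lower than at Stage2, against 8.87% of all genes tested, among them Klf5 (30.9 CPM). Another was the Grhl2 paralog Grhl1 (10.4 to 5.28 CPM, adjusted p = 0.0288), a call lost on leaving out any 1 Stage2 or iPSC library (adjusted p = 0.0624 to 0.114).

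Dimer partners and cofactors of these factors were read last. Of 9 helix-loop-helix partners of Twist proteins and Id inhibitors tested, 4 were lower and 1 higher at Stage1 than in MEF, fewer called in all than the 80.4% of all genes tested. The Id inhibitor gene Id3 fell at each step, from 124 CPM in MEF to 39.4, 4.48 and 0.869 CPM. Tcf15, a helix-loop-helix factor of paraxial mesoderm, rose between Stage1 and Stage2 (2.41, adjusted p = 7.40e-05). Its further difference in iPSC (0.92, adjusted p = 0.0481) was not called with RLE scaling (adjusted p = 0.0530) or library totals (adjusted p = 0.0681), nor without any 1 of several libraries (adjusted p up to 0.179). Of 18 corepressors and turnover proteins of Snail and Zeb factors, 10 were higher and 7 lower at Stage1 than in MEF, which is near the share of all genes tested (44.2% and 36.1%) and no result about these cofactors. The Polycomb genes Suz12 (32.7 to 357 CPM) and Ezh2 (11.5 to 123 CPM) led the rises, and Limd1 (92.2 to 17.0 CPM) and Lats2 (110 to 24.0 CPM) the falls. At Stage2, 3 were higher and 4 lower than at Stage1 (6 and 3 by library totals), near the 20.6% and 19.8% of all genes tested. In iPSC, 1 was higher than at Stage2 (Kdm1a) and 4 lower, beside 9.21% and 8.87% of all genes tested (1 and 6 by library totals). Against Stage1, iPSC had 3 higher and 9 lower, beside 21.3% and 18.1% (3 and 6 by library totals). The demethylase gene Kdm1a, a partner of Snai1, was thus an exception among the 18 in the last step. It was higher at each step after Stage1, from 210 to 276 and 404 CPM. Its first rise was not called without Stage1 replicate 1 (adjusted p = 0.0531) or replicate 3 (adjusted p = 0.0668).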

How the data were processed

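Per the labels' protocols, a miRNeasy Mini column kit served for extraction and libraries followed Illumina's standard method. The authors deposited 1 table of read counts per gene and library. Per the submitters' processing notes, the tools were TopHat2 2.0.9, Bowtie2 2.2.6, SAMtools 0.1.19, HTSeq 0.5.4p3 and DESeq2 1.12.4, with the mm10 build; the annotation version, the strand setting and the treatment of reads mapping to several places are not given in the sources used here. The deposited counts are not normalised. Rows that name no gene were left out of library sizes and tests; the no-feature row held 9.21% ± 0.304 of all rows' reads in MEF, 42.8% ± 4.11 at Stage1, 49.9% ± 3.16 at Stage2 and 38.8% ± 4.87 in iPSC (SD, n = 3).

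The main test was edgeR 4.0.16 (R 4.3.3): filterByExpr (cutoff 0.804 CPM, 14770 genes kept), TMM scaling, 1 robust quasi-likelihood fit over all 4 groups and Benjamini-Hochberg adjustment over all genes tested, called below 0.05. Levels are TMM-scaled CPM. The SE is the log2 fold change divided by the square root of F. Folds against groups with no read use a floor of 3 counts over the group. Intervals are exact at 95% and cover counting error only. Exon lengths came from GENCODE M21 and gene spans, promoters and microRNA sequences from RefSeq (GRCm38.p6). The fit was tested on simulated counts. The members and gene lists were chosen with earlier results of these data known. From each list, text examples are at most 3 called genes per direction with the largest change and at least 5 CPM in the higher group; all 10 members are given, with the 3 genes most like each computed and the nearest named. Some list genes are counted but not reported here by name. Alternatives were RLE scaling, library totals, no filter, at least 1 CPM in 3 or more libraries, the Wald test of DESeq2 1.42.0, a replicate block, a fit on the compared groups alone and leaving out each library.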

Additional observations from a re-analysis of the deposited data

How the results depend on the processing

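Of 848 alternative values for single factors, 810 kept their direction and their side of the threshold, 16 lost a call, 6 gained one and 16 changed sign; none of those 16 was called. All 7 falls and both rises from MEF to Stage1 were called in each of 19 alternatives. For Snai1, Twist2, Grhl2 and Ovol2 the filter had set the direction, so that these 4 calls held adds no support. The 848 values include the comparisons with MEF. Leaving out 1 library, Zeb2 between Stage2 and Stage1 ranged from -0.066 to 1.05, between iPSC and Stage1 from -0.043 to 1.09, and between iPSC and Stage2 from -0.15 to 0.26. In the last of these its value near 0 also turned to -0.026 with RLE scaling, -0.084 with library totals, -0.032 with DESeq2 and -0.033 with only the 2 groups compared. Ovol2 between iPSC and Stage2 ranged from -0.69 to 0.36 and Grhl2 between iPSC and Stage1 from -0.35 to 0.067 on leaving out 1 library. Calls gained were Zeb2 without Stage1 replicate 1, Zeb1 in the 2-group fit, Twist2 between iPSC and Stage1 without Stage1 replicate 3 (-2.76, adjusted p = 0.0457) or iPSC replicate 3 (-4.36, adjusted p = 0.0261), and Prrx1 between iPSC and Stage1 without iPSC replicate 1 (0.82, adjusted p = 0.0139). The cause of these changes was not tested.

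Leaving out 1 library gave 3 to 5 factors higher at Stage2 than at Stage1, 0 to 3 lower in iPSC than at Stage2 and 0 to 1 lower in iPSC than at Stage1. Over all genes, leaving out 1 library gave 665 to 1984 genes higher and 568 to 1910 lower in iPSC than at Stage2, against 1360 and 1310. With only the 2 groups compared these were 2307 and 2647, and Ovol2 could not be tested in iPSC against MEF, which left 1 factor higher there. Snai1 and Twist2 likewise had no value in 2-group fits between the later groups. Library totals shifted the median of all genes by 0.18, 0.20, -0.10, 0.10 and 0.28 on the log2 scale in the order Stage1 against MEF, Stage2 against Stage1, iPSC against Stage2, iPSC against Stage1 and iPSC against MEF; they gave 1679 genes lower at Stage2 than at Stage1 in place of 2921 and 888 higher in iPSC than at Stage2. The share of higher among called genes went from 51.1 to 70.6% in the first of these and from 50.9 to 34.2% in the second.

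Deviations of same-numbered libraries correlated weakly, from -0.0675 to 0.197, with 3 of 15 correlations over 0.1. Those with MEF ran from -0.0675 to 0.0419, and all those among Stage1, Stage2 and iPSC were positive, from 0.0107 to 0.197. Differently numbered libraries were not compared, so whether the numbers pair the libraries cannot be decided. With a replicate block, 5 factors were higher at Stage2 than at Stage1 (of 2975 genes) and 3 lower in iPSC than at Stage2 (of 1197 genes), and no call for a factor changed. Depth limits Snai1, Twist2, Ovol1 and Ovol2 outside MEF, where libraries held from 0 to 30 reads of each.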

Other observations

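Markers of other cell types were read beside the factors, all in summed CPM over libraries. The 7 endothelial markers summed to 9.75 to 17.9 CPM in MEF, 47.1 to 61.7 at Stage1, 79.1 to 105 at Stage2 and 80.6 to 109 in iPSC. Pecam1, which pluripotent cells also express, made up most of the later sums (0.187 CPM in MEF, 40.9 at Stage1 and 79.0 in iPSC), whereas Emcn went from 10.05 CPM in MEF to 0.137 at Stage1 and Cdh5 from 0.803 to 0.388 CPM. Of the 5 endothelial markers tested, 4 were called higher and 1 lower at Stage1 than in MEF, beside 44.2% and 36.1% of all genes tested. Kdr, Tie1 and Pecam1 reached the cutoff in no MEF library and so had to be higher later, while Emcn passed through MEF libraries alone. Trophoblast markers summed to 2.25 to 5.54 CPM in MEF, 119 to 138 at Stage1, 69.2 to 89.2 at Stage2 and 51.1 to 60.8 in iPSC. At Stage1 against MEF, 3 of the 5 tested were higher and 2 lower, near the 44.2% and 36.1% of all genes tested and no result about the set. Most of the Stage1 trophoblast sum was Tfap2c, also counted above as an epithelial factor. Its means were 0 CPM in MEF, 119 at Stage1, 54.5 at Stage2 and 30.4 in iPSC. Markers of gastrulating mesoderm, where Snai1 and Twist1 are active in the embryo, summed to 7.15 to 10.6 CPM at Stage1, 14.0 to 20.6 at Stage2 and 9.09 to 14.9 in iPSC, against 0.134 to 0.626 in MEF. Of the 3 mesoderm markers tested, 2 were higher at Stage2 than at Stage1, against 20.6% of all genes tested. Endoderm markers summed to 6.48 to 11.5 CPM in MEF, 1.80 to 2.61 at Stage1, 6.39 to 7.71 at Stage2 and 6.03 to 7.47 in iPSC. Of the 4 tested, 3 were higher at Stage2 than at Stage1, against 20.6% of all genes tested. Gata4, Sox17 and Foxa2 reached the cutoff in no MEF library. Neural markers summed to 174 to 302 CPM in MEF and 64.1 to 98.2 in the other libraries, and keratinocyte markers to at most 5.78 CPM in any library. Of 9 macrophage and blood markers, 7 were lower at Stage1 than in MEF and 0 higher, beside 36.1% and 44.2% of all genes tested. Tyrobp and Fcer1g passed the filter through MEF libraries alone and so had to fall.

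The transcript Dnm3os, a noncoding RNA of the mesenchyme linked to Twist1, was lower at Stage1 than in MEF (68.6 to 0.859 CPM; log2 fold change -6.31, adjusted p = 2.04e-13), higher at Stage2 than at Stage1 (2.15) and lower in iPSC than at Stage2 (-0.92, adjusted p = 0.0118), the last call being lost without Stage2 replicate 3, iPSC replicate 1 or iPSC replicate 2 (adjusted p = 0.0560 to 0.0695). Of 11 microRNA host hairpins acting on Zeb1, Zeb2 or Snai1, only Mir30a passed the filter. It had 0 reads in MEF, 35 at Stage1, 48 at Stage2 and 48 in iPSC. Since Mir30a reached the cutoff in no MEF library, it had to be higher later. The no-feature row held 9.21% of reads in MEF and 38.8 to 49.9% in the other groups, and its bearing on hairpin counts was not tested.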
